A study of Mus musculus with 3 samples.

Results

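The replication-dependent histone genes encode the proteins that package newly copied DNA, and they were taken here as all genes whose symbol starts with Hist1h, Hist2h, Hist3h or Hist4h. They numbered 68 of the 23337 genes counted: 6 for the linker histone H1, 18 for H2A, 19 for H2B, 12 for H3 and 13 for H4. RNA had been measured in mouse heart tubes at embryonic day 9.5 (E9.5), in 2 libraries of the genotype Sox7-null (SOX7 -/-, tubes 1 and 2) and 1 library of the wild type (tube 3). Sox7 encodes a transcription factor of endothelial and endocardial cells, and the study asked which genes are dysregulated in heart tubes without it. The labels give no strain, no allele beyond the null genotype and no number of embryos in a tube, so the 2 null libraries may be technical repeats, and their spread is all that a p-value here measures. The wild type had 1 library and no replicate, and the model takes its variation from the nulls.

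Replication-dependent histone genes lie in clusters, are transcribed during S phase, when DNA is copied, and make the only animal mRNAs that normally end without a poly(A) tail. Their 3′ end is a short stem-loop, which the stem-loop binding protein (SLBP) holds while the U7 small nuclear RNA directs the cut just after it. In differentiating cells some of these genes can instead run on to a poly(A) signal and give a tailed mRNA, and replacement histones made from ordinary genes outside S phase take over part of their place on chromatin.

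The stem-loop is shown because it is the shared sequence that sets these mRNAs apart. It was searched in the annotated transcript of each member (GENCODE, GRCm38) as a 6-base stem that opens with GG, a 4-base loop TNTN and the exact reverse complement of the stem, and it was present in 45 of 68 members, against 0.709% of 21877 coding genes. The sites below run 5′ to 3′ in DNA letters, with the stem in capitals and the loop between its arms.
Hist1h1c: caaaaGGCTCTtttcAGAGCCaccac
Hist3h2a: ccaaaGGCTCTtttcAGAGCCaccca
Hist1h2bj: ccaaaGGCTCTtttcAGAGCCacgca
Hist1h3c: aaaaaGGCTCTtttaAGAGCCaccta
Hist1h4i: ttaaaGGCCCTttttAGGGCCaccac
Hist4h4: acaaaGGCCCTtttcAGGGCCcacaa
The form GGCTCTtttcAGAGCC occurred in 25 members of the H1, H2A, H2B and H3 classes, and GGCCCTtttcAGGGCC in 7 H4 genes, so these H4 stems had letters of their own. No match says only that these letters are not in the annotated transcript, as for Hist1h1a, Hist1h2bc and Hist2h2be.

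The libraries held 13139823 and 13618338 gene reads in the Sox7-null tubes and 13789388 in the wild-type tube. Sox7 itself had 2 and 7 reads in the nulls and 222 in the wild type, a level 50.7-fold lower in the nulls (95% exact counting interval 26.2 to 112; edgeR's quasi-likelihood test with Benjamini-Hochberg adjustment, adjusted p = 3.81e-05). Of 5 heart muscle markers 4 rose in the null libraries, and 3 of 4 retina markers were at 0 in all libraries, the other, Rax, having 2 reads in Sox7-null 1. Of 3 endothelium and endocardium markers 1 rose, Pecam1 (log2 fold change 1.07 ± 0.24 SE, edgeR adjusted p = 0.00756). Cdh5 (0.50 ± 0.21) and Nfatc1 (-0.01 ± 0.25) did not pass the test. All 4 foregut and liver bud markers fell, with summed levels of 0.741 and 0.870 CPM (counts-per-million of the library's gene reads after TMM scaling) in the null libraries and 38.2 CPM in the wild type, and the 5 primitive erythroid markers summed to 4496 and 14261 CPM in the null libraries and 13826 CPM in the wild type. The part of these cell types in the histone values was not tested. In whole tubes, fewer cells of a type and less RNA per cell cannot be told apart.

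Histone genes took few reads in every library. They had 1218 and 1180 reads in the nulls and 1480 in the wild type, or 0.00927% (95% exact Clopper-Pearson interval 0.00876 to 0.00981), 0.00866% (0.00818 to 0.00917) and 0.0107% (0.0102 to 0.0113) of gene reads. At least 1 read was found for 52 and 53 members in the nulls and 53 in the wild type, while at least 10 reads were found for 11 and 17 members in the nulls and 33 in the wild type. At least 10 reads summed over the libraries were reached by 46 members, and 58 had at least 1. The other 10 had 0 reads in all libraries, which allows up to 0.222 and 0.218 CPM in the nulls and 0.226 CPM in the wild type: Hist1h2aa, Hist1h2ao, Hist1h2ap, Hist1h2ba, Hist1h2bq, Hist1h2br, Hist1h4m, Hist1h4n, Hist2h2aa2 and Hist2h3c2. Intervals and these limits cover counting error only, for reads that were counted to a gene. Reads that aligned to several places were not counted. A member that shares its sequence with other copies may therefore have 0 reads and still be expressed.

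Copies share reads. Of the 50-base windows of a member's transcript, a median of 48.1% occurred in no annotated transcript of another gene, on either strand. In 34 of 68 members the share was under 50%. A window also counted as shared where another gene is annotated over the same place, so these shares are not of copies alone. The class medians were 98.9% for H1, 27.0% for H2A, 54.7% for H2B, 38.0% for H3 and 60.5% for H4. Hist2h2aa1, Hist2h2aa2, Hist2h3b, Hist2h3c1, Hist2h2bb and Hist1h2bq had none of their own. Of these, Hist2h3c1 still had 19 reads and Hist2h2bb 22 over the libraries. Values of single H2A, H2B, H3 and H4 genes are therefore uncertain, and sums over a class, which lose only the reads that were not counted to any gene, are given before them. Reads that aligned to several places and were not counted made up 10.4% and 11.6% of the reads in the null files and 22.3% in the wild-type file; their part in the sums was not tested.

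Summed over all 68 members, the histone level was lower in both Sox7-null libraries, at 90.3 and 85.6 CPM, than in the wild type, at 112 CPM. The mean of the nulls was 87.9 ± 3.34 CPM (SD, n = 2), and the ratio of Sox7-null to wild type was 0.788 (95% exact counting interval 0.738 to 0.841), a log2 ratio of -0.34. With 1 wild-type library the sums were not tested, so the interval says how far the counts themselves fix the ratio and nothing of the spread between wild-type tubes.

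The classes divided into H2B, H3 and H4, which were lower in both null libraries, and H1 and H2A, which were not. H3, the core histone whose tail carries many of the known chromatin marks, had 70 and 106 reads in the nulls and 167 in the wild type (5.19 and 7.69 CPM against 12.6 CPM), a ratio of 0.513 (0.412 to 0.637). H4, its partner in the tetramer at the centre of the nucleosome, had 108 and 182 reads in the nulls and 269 in the wild type (8.01 and 13.2 CPM against 20.3 CPM), a ratio of 0.524 (0.443 to 0.621). In both classes Sox7-null 1 was lower than Sox7-null 2, and both lay below the wild type.

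H2B, which pairs with H2A in the outer dimers, had 303 and 305 reads in the nulls and 458 in the wild type (22.5 and 22.1 CPM against 34.5 CPM), and its ratio was 0.646 (0.571 to 0.731). H2A had 421 and 365 reads in the nulls and 364 in the wild type (31.2 and 26.5 CPM against 27.4 CPM), with a ratio of 1.05 (0.926 to 1.19). H1, which binds the DNA between nucleosomes, had 316 and 222 reads in the nulls and 222 in the wild type (23.4 and 16.1 CPM against 16.7 CPM), with a ratio of 1.18 (1.01 to 1.38). For H1 and H2A the wild type lay between the null libraries: Sox7-null 1 differed from it by log2 0.49 and 0.19, and Sox7-null 2 by -0.06 and -0.05.

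**Figure D1:**
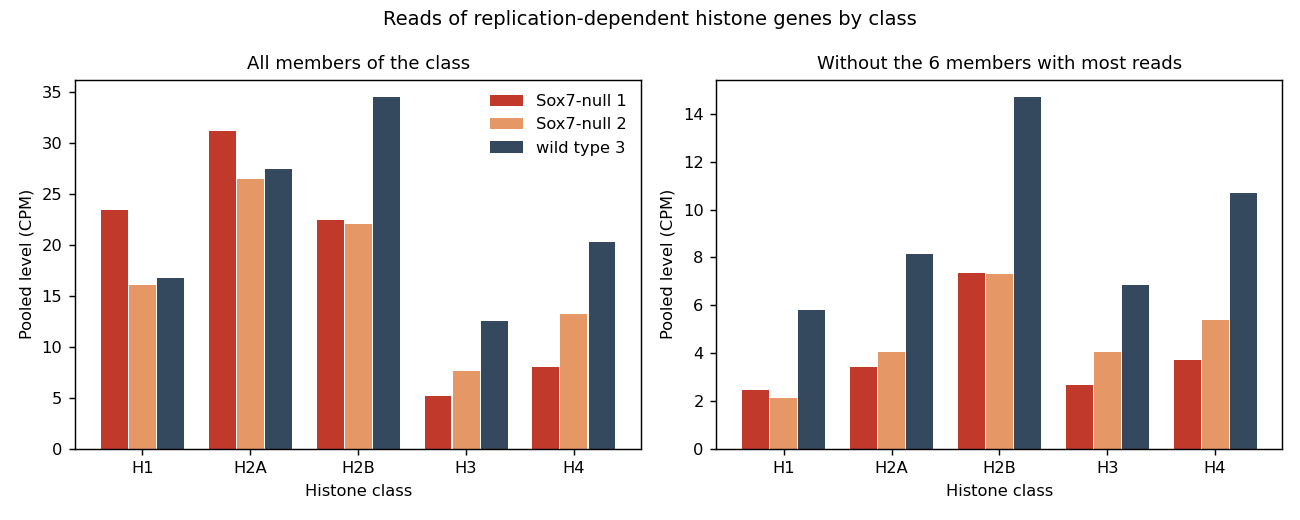
Summed level of each histone class in CPM (vertical axes, starting at 0) in the 3 libraries, each bar being 1 library, for all members (left) and without the 6 members with the most reads (right). On the left both null bars lie below the wild type in H2B, H3 and H4; on the right both lie below it in all 5 classes.

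A few genes carried most of these sums. Hist3h2a had 940 reads over the libraries, Hist1h1c 621, Hist1h2bc 497, Hist1h4i 293, Hist2h2be 174 and Hist1h3c 160, together 69.2% of all histone reads. Their share was 78.3% and 73.2% in the nulls and 58.6% in the wild type. Hist1h1c made up 81.7% of the H1 reads and Hist3h2a 81.7% of the H2A reads.

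The 6 genes and the other 62 differed in their ratios. Summed, the 6 had 954 and 864 reads in the nulls and 867 in the wild type, a ratio of 1.02 (0.940 to 1.11), whereas the other 62 had 264 and 316 reads in the nulls and 613 in the wild type, a ratio of 0.460 (0.410 to 0.516). Without the 6, every class was lower in both null libraries. The remaining H1 genes had 33 and 29 reads in the nulls and 77 in the wild type (log2 ratio -1.35), the H2A genes 46 and 56 against 108 (-1.12), and the H2B genes 99 and 101 against 195 (-1.0). The remaining H3 genes had 36 and 56 reads in the nulls and 91 in the wild type (-1.02), and the H4 genes 50 and 74 against 142 (-1.24). The 6 were chosen by their reads over all libraries, and the split was made after the values were seen, so it is a description.

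Gene by gene, both null libraries were below the wild type in CPM for 44 of the 58 detected members (75.9%), against 44.3% of the 17242 genes with at least 1 read. Both were above it for 4 members, Hist1h1c, Hist3h2a, Hist1h2af and Hist2h3c1, against a background of 37% of genes, and for 10 members the wild type was between or level with a null library. By class, both nulls were below the wild type for 4 of 6 detected H1 genes, 10 of 14 H2A, 12 of 16 H2B, 9 of 11 H3 and 9 of 11 H4 genes. Many of these differences are of a few reads. In Hist1h2ac, Hist1h2bf, Hist1h3f and Hist2h2ab a null library had the same read count as the wild type and was lower only after scaling.

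**Figure D2:**
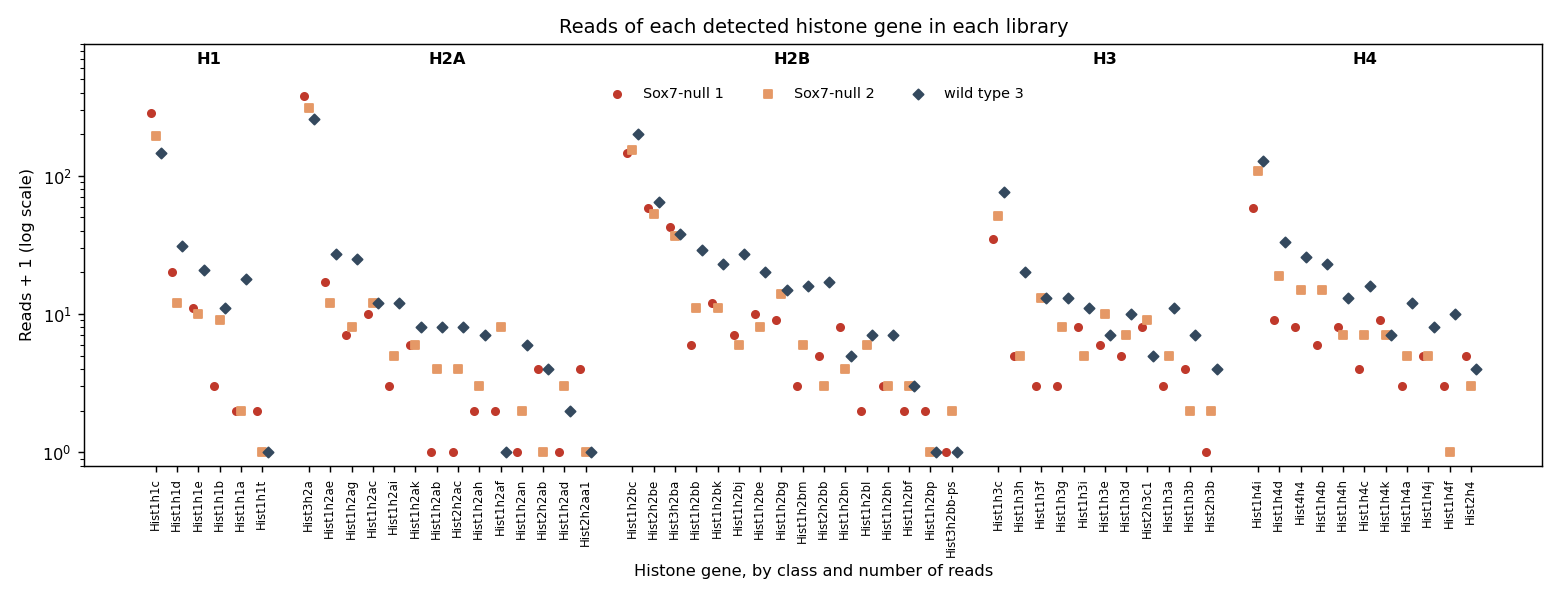
Reads plus 1 on a log scale (vertical axis) of the 58 detected members (horizontal axis, by class and falling number of reads), with 1 point for each library. The wild-type diamond is the highest of the 3 points for most genes, but not for Hist1h1c and Hist3h2a, the leading genes of H1 and H2A.

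In the fit across all genes, 30 members passed the filter on low counts, 12 of them through the wild-type library alone, so the members tested lean towards genes high in the wild type and their counts and median are no support for a direction. Of these 30 none rose and 2 fell past an adjusted p of 0.05, against 11.3% of 13334 tested genes that rose and 10.2% that fell. At an unadjusted p under 0.05 there were 9, 8 of them lower. Their median log2 fold change was -1.17, against 0.014 over all genes tested. With no filter on low counts edgeR called no gene at all, members included (smallest adjusted p 0.122). The 38 members left out of the test summed to 74 and 89 reads in the nulls and 137 in the wild type.

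Both genes that fell had passed the filter in the wild type alone. Hist1h1a, an H1 gene with no shared windows, had 1 read in each null library and 17 in the wild type, a wild-type level 17.5-fold the null level with a counting interval of 4.15 to 156 (log2 fold change -3.97 ± 1.1 SE, edgeR adjusted p = 0.0233). Hist1h2bj, an H2B gene, had 6 and 5 reads in the nulls and 26 in the wild type (log2 fold change -2.25 ± 0.73, edgeR adjusted p = 0.0441). Removing the length and GC trend lost the call of Hist1h2bj (-1.78, edgeR adjusted p = 0.0980). Both nulls lay below the wild type in each gene, as in 44.3% of the 17242 genes with at least 1 read. Since the test picked these genes, that is no support for the calls. Neither call was made by DESeq2, for which 23 of the 30 members had no adjusted p. Its unadjusted p was 0.0577 for Hist1h1a and 0.117 for Hist1h2bj.

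Hist1h1c, the H1 subtype H1.2, stood apart from the other H1 genes. It had 283 and 193 reads in the nulls and 145 in the wild type (20.98 and 14.0 CPM against 10.9 CPM), both nulls above the wild type. Its log2 fold change, 0.68 ± 0.29, missed the threshold (edgeR adjusted p = 0.119). Hist1h1d, the subtype H1.3, had 19 and 11 reads in the nulls and 30 in the wild type (-1.03 ± 0.61, edgeR adjusted p = 0.252), and Hist1h1e, the subtype H1.4, had 10 and 9 against 20 (-1.10 ± 0.70, edgeR adjusted p = 0.288). The testis form Hist1h1t had 1 read in Sox7-null 1 and 0 in the other libraries. When the trend of fold changes with transcript length and GC content was removed, Hist1h1c passed the threshold as higher (0.76, edgeR adjusted p = 0.048).

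Hist3h2a had the most reads of any member, 375 and 309 in the nulls and 256 in the wild type (27.8 and 22.4 CPM against 19.3 CPM; log2 fold change 0.38 ± 0.24, edgeR adjusted p = 0.277). Both nulls lay above the wild type, without passing the test. Its neighbour in the small Hist3 cluster, the H2B gene Hist3h2ba, had 42 and 36 reads in the nulls and 37 in the wild type (0.04 ± 0.47), and the pseudogene Hist3h2bb-ps had 1 read in all. Among the other H2A genes, Hist1h2ag had 6 and 7 reads in the nulls and 24 in the wild type (-1.90 ± 0.72, edgeR adjusted p = 0.0782), Hist1h2ae 16 and 11 against 26, and Hist1h2ac 9 and 11 against 11.

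Among the H2B genes, Hist1h2bc had 146 and 152 reads in the nulls and 199 in the wild type (log2 fold change -0.46 ± 0.26, edgeR adjusted p = 0.232), and its sign turned to 0.08 with the length and GC trend removed. Hist2h2be had 58 and 52 reads in the nulls and 64 in the wild type (-0.26 ± 0.39). Both nulls lay below the wild type in these 2 leading genes and also in Hist1h2bb, which had 5 and 10 reads in the nulls and 28 in the wild type (-1.92 ± 0.70, edgeR adjusted p = 0.0675). Hist2h2bb, none of whose windows was its own, had 4 and 2 reads in the nulls and 16 in the wild type.

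The leading H3 gene, Hist1h3c, had 34 and 50 reads in the nulls and 76 in the wild type (log2 fold change -0.90 ± 0.41, edgeR adjusted p = 0.137). Hist1h3h followed with 4 and 4 reads in the nulls and 19 in the wild type (-2.25 ± 0.84, edgeR adjusted p = 0.0729), while Hist1h3f had 2 and 12 reads in the nulls and 12 in the wild type, so that Sox7-null 2 reached the wild-type count. The leading H4 gene, Hist1h4i, had 58 and 108 reads in the nulls and 127 in the wild type (-0.66 ± 0.37, edgeR adjusted p = 0.228). Hist1h4d had 8 and 18 reads in the nulls and 32 in the wild type (-1.33 ± 0.64), and Hist4h4, the only member on chromosome 6, had 7 and 14 reads against 25 (-1.28 ± 0.68). No H3 or H4 gene passed the test.

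**Figure D3:**
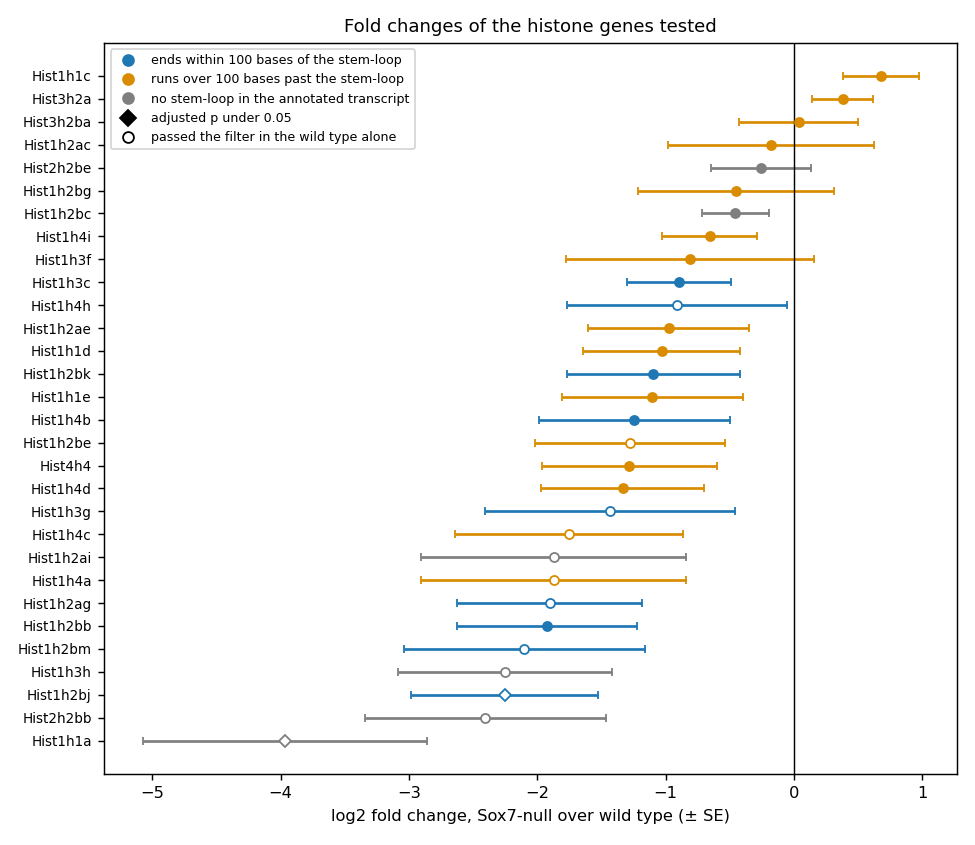
Log2 fold change of Sox7-null over wild type (horizontal axis, bars ± SE from edgeR) for the 30 members tested, coloured by where the annotated transcript ends; diamonds passed an adjusted p of 0.05 and open symbols passed the filter in the wild type alone. The diamonds are Hist1h1a and Hist1h2bj, and Hist1h1c has the highest value, at 0.68.

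By genomic cluster, the 54 genes of Hist1 on chromosome 13 had 715 and 752 reads in the nulls and 1062 in the wild type (log2 ratio -0.57). The 10 genes of Hist2 on chromosome 3 had 79 and 68 reads in the nulls and 100 in the wild type (-0.48). The 3 genes of Hist3 on chromosome 11, mostly Hist3h2a, had 417 and 346 reads in the nulls and 293 in the wild type (0.34). Hist3 was thus the 1 cluster whose sum was higher in both null libraries.

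The sums also differed with the annotated 3′ end of the transcript, a grouping chosen after the values were seen and given without a test. Transcripts of 22 members are annotated to end within 100 bases of the stem-loop, from 3 bases past it (Hist1h2ap) to 74 bases (Hist1h3c). Whether these are ends cut as U7 directs was not tested. Those members had 89 and 129 reads in the nulls and 279 in the wild type, a ratio of 0.380 (0.317 to 0.455). Transcripts of 23 members run more than 100 bases past the stem-loop, and these had 878 and 793 reads in the nulls and 815 in the wild type, a ratio of 0.997 (0.917 to 1.09).

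This second group holds Hist3h2a, whose transcript is annotated 1643 bases past the stem-loop, Hist1h1c, at 840 bases, and Hist1h4i, at 330 bases. Without the 6 genes with the most reads its log2 ratio was -0.77, and that of the group ending near the stem-loop was -1.64. The 23 members with no stem-loop in the annotated transcript had 251 and 258 reads in the nulls and 386 in the wild type (log2 ratio -0.64). The 17 members with AATAAA or ATTAAA in the last 50 annotated bases had 874 and 754 reads in the nulls and 736 in the wild type (0.11), and the other 51 had 344 and 426 against 744 (-0.99). The files count reads per gene, so the ends that the transcripts had in these tubes were not measured.

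Per length, the reads counted to histone genes were few beside those counted to replacement histone genes. On a scale of RPKM (CPM divided by the kilobases of annotated transcript), the mean levels of the 58 detected members ran from 0.0278 to 10.8 with a median of 0.700, and 5 were over 5: Hist3h2a at 10.8, Hist1h2bc at 10.6, Hist1h4i and Hist1h1c at 9.88 and Hist1h3c at 6.23. The levels of Hist1h2bc, Hist1h4i and Hist1h1c differ less from each other than between libraries. H2afz, a replacement H2A, had levels of 417 and 602 RPKM in the nulls and 1253 RPKM in the wild type, and H3f3a, which encodes the replacement histone H3.3, had 286 and 348 RPKM in the nulls and 523 RPKM in the wild type.

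Class genes therefore made up a small share of the counted reads of class and replacement genes together. Reads that aligned to several places were not counted, and they made up more of the wild-type file than of the null files. The median share of windows found in no transcript of another gene was 27.0% in H2A and 38.0% in H3 genes, so the class reads may be too low. The part of this loss in the shares was not tested. For H3 the share was 0.355% and 0.454% in the nulls and 0.527% in the wild type, and for H1 6.20% (95% exact Clopper-Pearson interval 5.56 to 6.90) and 4.68% (4.10 to 5.32) in the nulls and 6.78% (5.94 to 7.70) in the wild type. For H2A it was 4.04% and 2.47% in the nulls and 1.39% in the wild type. In H2A the class reads were nearly level while the replacement reads were 9997 and 14424 in the nulls and 25852 in the wild type.

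Replacement and variant histone genes were tested as a list of 15, of which 11 passed the filter, 1 rose and 5 fell, against 11.3% and 10.2% of all tested genes, with a median log2 fold change of -0.56 against 0.014 over all genes. H2afz fell, with 5853 and 8757 reads in the nulls and 18475 in the wild type (-1.38 ± 0.19), as did H3f3a, with 10672 and 13462 reads in the nulls and 20471 in the wild type (-0.80 ± 0.15), and H2afv, H2afj and the centromeric H3 gene Cenpa. The call of Cenpa was lost with the length and GC trend removed (-0.46, edgeR adjusted p = 0.0833), and that of H2afj with DESeq2 (adjusted p = 0.193) and at a mean of at least 5 CPM (edgeR adjusted p = 0.0570). H1f0, the H1.0 linker histone of cells that have stopped dividing, rose, with 4095 and 3870 reads in the nulls and 2547 in the wild type (0.61 ± 0.17). H3f3b, the other gene for H3.3, had a log2 fold change of -0.08 ± 0.15.

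Of 28 tested genes for the processing and transcription of histone mRNA, 2 rose and 5 fell past an adjusted p of 0.05 (median -0.14). Together they are 7 of 28, close to the 21.6% of all tested genes called in either direction. Slbp, the stem-loop binding protein, fell, with 580 and 786 reads in the nulls and 1440 in the wild type (-1.12 ± 0.21, edgeR adjusted p = 0.00325). Ccne1, the cyclin E1 that activates the histone locus factor NPAT through CDK2, fell, with 253 and 470 reads in the nulls and 928 in the wild type (-1.40 ± 0.28, edgeR adjusted p = 0.00426).

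Lsm1, part of the ring that binds histone mRNA for decay, fell (-1.03 ± 0.22), as did the cap-binding subunit Ncbp2 (-0.75 ± 0.22) and the cleavage subunit Cpsf2. Cpsf1 (0.77 ± 0.23) and the scaffold Sympk (0.76 ± 0.20) rose. Npat and Casp8ap2, which organise the histone locus body, did not pass the test (0.34 ± 0.21 and -0.51 ± 0.23), and Rnu7, the U7 RNA, had 0 reads in all libraries. After removal of the length and GC trend, 0 genes of this list rose and 7 fell, and the calls of Cpsf1, Sympk and Ncbp2 were lost (edgeR adjusted p = 0.334, 0.329 and 0.115); Cpsf1 was also lost with DESeq2.

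DNA replication and S phase genes, the list with the most genes tested, also gave the most calls by number. Of 40 tested, 20 fell and none rose (median -0.60), against 10.2% of all tested genes that fell. Both nulls lay below the wild type in 37 of the 40. Over the 17242 genes with at least 1 read the share was 44.3%, but these include genes left out of the test for low counts. The 2 shares are therefore not of like sets. DESeq2 called 12 of the 40 lower and none higher, against 721 lower and 941 higher of all 13334 genes. Pcna, the sliding clamp of DNA polymerases, had 2339 and 3469 reads in the nulls and 5807 in the wild type (-1.04 ± 0.20). The nucleotide supply genes Rrm2 (-1.43 ± 0.22), Tyms (-1.39 ± 0.23), Dut (-1.32 ± 0.21) and Tk1 (-1.22 ± 0.22) also fell. Of 18 histone chaperones tested, 3 fell and none rose (median -0.23): Asf1a, which hands H3 and H4 to the replication fork (-1.20 ± 0.19), Rbbp4 and Mcm2. Over all tested genes 10.2% fell, or 21.6% changed in either direction. Beside the fit with no filter, which called no gene, the call of Mcm2 was lost under 5 alternatives, DESeq2 and limma-voom among them (adjusted p 0.0554 to 0.0881). Each of these left 2 falls, while 5 chaperones fell once the trend with length and GC was taken out. Of 5 mitotic markers 1 rose, Top2a at 0.51, and none fell; DESeq2, limma-voom and the fit after removing the length and GC trend called 0 of them. Their summed level was 949 and 1024 CPM in the nulls and 988 CPM in the wild type, and Mki67 had a log2 fold change of 0.03 ± 0.19.

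**Figure D4:**
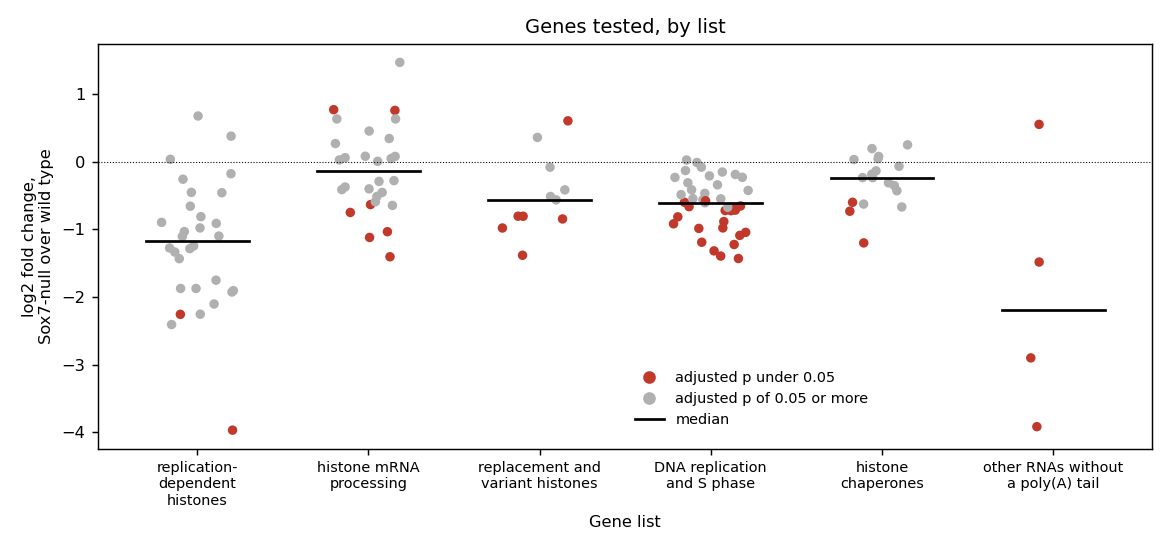
Log2 fold change of Sox7-null over wild type (vertical axis) of each tested gene, by gene list; red points passed an edgeR adjusted p of 0.05 and black bars are medians. The median is -1.17 in the histone genes, where most points are grey, -0.60 in the S phase genes, where 20 of 40 are red, and -0.14 in the histone mRNA processing genes. Of the 30 histone genes shown, 12 passed the filter in the wild type alone, so their median is no support for a direction and cannot be ranked against the other lists.

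Other RNAs that lack a poly(A) tail were looked at beside the histone genes, since the libraries were labelled as total RNA. Of 14 listed, 8 were in the files and 4 passed the filter. Rmrp, the RNA of the RNase MRP enzyme, fell, with 9 and 27 reads in the nulls and 131 in the wild type (-2.90 ± 0.49, edgeR adjusted p = 0.00186), and Rpph1, the RNA of RNase P, fell, with 3 and 7 reads in the nulls and 75 in the wild type (-3.91 ± 0.59, edgeR adjusted p = 0.00113). Rn45s, the ribosomal RNA precursor, fell, with 85987 and 126116 reads in the nulls and 287470 in the wild type (-1.48 ± 0.15), or 0.654% and 0.926% of gene reads in the nulls and 2.08% in the wild type. Malat1, a nuclear RNA with an A-rich end of its own, rose (0.55 ± 0.18, edgeR adjusted p = 0.0426), a call lost with DESeq2 (0.0817), limma-voom (0.0544), the length and GC trend removed (0.121), a mean of at least 5 CPM (0.0580) and without ribosomal and small RNA genes (0.0501). The part of such differences between libraries in the histone sums was not tested.

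Promoters are shown for the 2 genes that fell and for Hist1h1c and Hist3h2a, the leading members with values above the wild type in both nulls. Each line is the 250 bases before the annotated start (RefSeq, GRCm38.p6, plus strand), with capitals for any match, on either strand, to the TATA box TATAAA, the CCAAT box, the octamer ATTTGCAT or the H1 box AAACACA.
Hist1h1a, chr13:23763418-23763667: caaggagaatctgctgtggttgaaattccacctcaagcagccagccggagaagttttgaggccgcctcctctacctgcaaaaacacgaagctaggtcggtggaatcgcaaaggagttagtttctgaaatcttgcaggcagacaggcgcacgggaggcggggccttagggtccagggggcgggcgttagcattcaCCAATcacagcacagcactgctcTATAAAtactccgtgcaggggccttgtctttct
Hist1h2bj, chr13:22042948-22043197: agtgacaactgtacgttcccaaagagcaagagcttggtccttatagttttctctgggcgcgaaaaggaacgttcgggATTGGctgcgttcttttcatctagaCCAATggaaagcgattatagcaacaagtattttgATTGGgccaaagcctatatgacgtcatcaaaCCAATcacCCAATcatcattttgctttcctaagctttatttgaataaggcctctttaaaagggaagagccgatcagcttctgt
Hist1h1c, chr13:23738557-23738806: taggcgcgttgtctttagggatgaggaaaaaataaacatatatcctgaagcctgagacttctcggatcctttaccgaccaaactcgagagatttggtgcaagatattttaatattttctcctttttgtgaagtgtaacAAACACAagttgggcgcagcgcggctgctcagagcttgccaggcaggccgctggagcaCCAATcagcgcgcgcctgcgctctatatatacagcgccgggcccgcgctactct
Hist3h2a, chr11:58954435-58954684: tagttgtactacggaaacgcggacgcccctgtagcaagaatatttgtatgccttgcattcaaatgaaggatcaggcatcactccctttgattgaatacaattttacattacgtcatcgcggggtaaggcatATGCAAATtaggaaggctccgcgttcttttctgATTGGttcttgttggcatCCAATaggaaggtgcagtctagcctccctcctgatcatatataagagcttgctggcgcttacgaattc
Hist1h1a has a CCAAT and a TATAAA, Hist1h1c a CCAAT and an H1 box, Hist1h2bj several CCAAT matches, and Hist3h2a the octamer beside CCAAT matches.

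Promoters of 61 of the 68 members were matched. CCAAT was in 82.0% of them, in all 6 H1, all 17 H2A and all 16 H2B promoters but in 3 of 12 H4 promoters, against 33.8% of 32851 promoters in the same table. TATAAA was in 47.5%, against 12.4% of all promoters. The octamer was in 7 of 17 H2A and 6 of 16 H2B promoters and in none of the other classes, against 1.60% of all promoters, and the H1 box was in 5 of 6 H1 promoters, against 6.25%. A match is a description of letters and not of a site in use.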

How the data were processed

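Trizol extraction and a kit for strand-specific libraries from total RNA were used, per the labels' protocols; the protocol text names retinal organoids, but the tissue label, heart tube, was followed. The deposited values are raw counts of reads per gene, with 1 file for each library. Per the submitters' processing notes, the tools were DESeq2 1.10.1, HTSeq, TopHat2 and CASAVA; the builds listed there, GRCh37 and hg19, are human although the symbols are of mouse, so the build is not settled. The strand setting is not given in the sources used here, so overlapping and antisense genes cannot be told apart. Summary lines (no feature, ambiguous, not unique) held 20.8% and 22.4% of reads in the null files and 35.9% in the wild-type file and entered neither the totals nor the tests. No 2 libraries agreed within sampling noise (chi-square per degree of freedom 19.6 between the nulls, 117 and 70.6 against the wild type).

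Sox7-null was tested against wild type with edgeR 4.0.16 (glmQLFit, glmQLFTest; TMM factors 1.03, 1.01 and 0.962; filterByExpr, minimum count 10) in R 4.3.3 over 13334 genes, with Benjamini-Hochberg adjustment, 1 residual and 11.8 prior degrees of freedom and a biological coefficient of variation of 15.0%; 10003 genes were left out. The scripts were tested on simulated data. CPM use TMM-scaled totals. RPKM, stem-loops and shared 50-base windows come from GENCODE M21 transcripts, promoters from RefSeq. DESeq2 1.42.0, limma-voom (limma 3.58.1), other filters, scaling by total count, removal of a length and GC trend and leaving out each null library were the alternatives, and the 30-read filter and the grouping by transcript end were added after seeing the data. Named members are those called, the leading ones of each class and those outside the Hist1 and Hist2 clusters; of each list, those with the smallest p and those needed to say what the list holds. Members and lists were chosen with earlier results of these data known.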

Additional observations from a re-analysis of the deposited data

How the results depend on the processing

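The summed H2B, H3 and H4 stayed below the wild type under every alternative run, and H1 and H2A did not keep their direction. H1 (log2 ratio 0.24) and H2A (0.07) turned to -1.35 and -1.12 without the member with the most reads, Hist1h1c and Hist3h2a; without Sox7-null 1 they were -0.06 and -0.05, and without Sox7-null 2 0.49 and 0.19. H2B (-0.63) was -0.55 scaled by total gene count and -0.78 without Hist1h2bc, and the sum over all members (-0.34) was -0.26 scaled by total gene count and -0.55 without Hist3h2a. The group of transcripts running past the stem-loop (-0.00) was -0.77 without the 6 genes with the most reads. The calls rest on the filter and the tool. Over all genes edgeR called 1508 higher and 1366 lower, DESeq2 941 and 721, and edgeR with no filter 0 and 0 (4113 genes at an unadjusted p under 0.05; smallest adjusted p 0.122). Of the members, 0 were called lower with no filter (7 at an unadjusted p under 0.05), 0 of 4 tested at a mean of at least 5 CPM, 0 with DESeq2 (0 at an unadjusted p under 0.05) and 1 of 20 with at least 30 reads in all. With the length and GC trend removed, 1 member (Hist1h1c) was called higher and 1 (Hist1h1a) lower, Hist1h2bj losing its call, and Hist1h2bc turned to 0.081, against -0.46 in the main setting. The median of the tested members (-1.17) was -0.033 at a mean of at least 5 CPM and ran from -1.51 to -1.11 when a null library was left out; with 1 null against 1 wild-type library there is no residual degree of freedom, so no calls were counted. The causes were not tested beyond the number of genes each filter leaves. No paired analysis was possible because the groups share no replicate number. Depth limits the single genes: the median member had 18 reads over the 3 libraries.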
